A study of Mus musculus with 4 samples.

Results

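The H2 genes are the genes of the mouse major histocompatibility complex (MHC). They were taken as every row of the deposited region annotation whose gene symbol begins with H2-, on any contig. The rule found 216 transcript rows of 42 symbols, out of 26161 symbols and 50703 rows that name a gene. Rows of a symbol that shared at least 1 base on the same contig and strand were merged into a locus, which gave 148 loci on 7 contigs. These were chromosome 17 of mm10 and 6 alternate contigs of chromosome 17, named GL456002, GL456022, JH584266, JH584308, JH584328 and JH590470. An alternate contig is a further assembled version of a stretch that the reference chromosome already holds, so a gene in that stretch has a position on each version. The mouse strain behind each contig is not given in the sources used here.

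The series profiled RNA polymerase I by CUT&Tag, which cuts and tags DNA beside an antibody-bound protein, in the mouse embryonic stem cell line C64. Its 4 libraries form a control group of 2 without treatment and a group of 2 treated with 500 nM auxin over 6 h. This plant hormone triggers the breakdown of proteins that carry an auxin-inducible degron, and the labels name no tagged protein and no allele. The annotation holds no value for any library, so depth, signal and the difference between the groups were not analysed here, and every number below is a coordinate, a length or a count from a fixed annotation with no replicate error.

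Class I molecules are a heavy chain paired with beta-2 microglobulin, and they show peptides from inside the cell to CD8 T cells and natural killer cells. Their heavy chain is built from a leader, 3 extracellular domains called alpha 1, alpha 2 and alpha 3, a membrane stretch and a cytoplasmic tail, which are encoded by successive exons. Class II molecules pair an alpha with a beta chain, each with a membrane-distal and a membrane-proximal domain, and show peptides taken up from outside to CD4 T cells. The complex is among the most variable stretches of the mouse genome between strains, and copy number of its class I genes differs between haplotypes.

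By symbol, the 42 genes fell into 31 class I, 10 class II and 1 other gene. The class I genes were the classical H2-K1 and H2-D1, which present peptides on nearly all nucleated cells, together with H2-K2, 9 genes of the Q region, 7 of the T region and 12 of the M region. The Q, T and M genes are non-classical or class Ib genes, of which H2-T23 encodes Qa-1, a ligand of natural killer receptors, and H2-M3 presents N-formylated peptides. A further classical gene of some mice, H2-L, was looked for and has no row. Class II was represented by H2-Aa and H2-Ab1 (the I-A pair), H2-Ea, H2-Eb1 and H2-Eb2 (I-E), and H2-DMa, H2-DMb1, H2-DMb2, H2-Oa and H2-Ob, whose products load peptides or regulate that loading. H2-Ke6 is a member by name only. It is Hsd17b8 by synonym, a short-chain dehydrogenase, and it had 9 coding exons and 780 coding bases. Of the 42 symbols, 39 had at least 1 row with a coding part, and H2-K2, H2-Q5 and H2-Ea had none. RefSeq lists H2-K2, H2-Q5 and H2-Ea as transcribed pseudogenes. All 186 coding rows had a coding length that is a multiple of 3. Of the 50 genes with an H2 symbol in the RefSeq table of GRCm38.p6, 42 had a row, and the 8 without were H2-D4, H2-M10.5-ps1, H2-M4-ps, H2-M6-ps, H2-Pa, H2-Pb, H2-Q3 and H2-T18.

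On chromosome 17 the annotation placed 40 of the 42 symbols between bases 33974659 and 37483554, a span of 3508896 bases that also holds 162 other symbols. Vps52, a vesicle-tethering gene, lay 7620 bases before the first H2 locus, and the olfactory receptor gene Olfr110 lay 8913 bases after the last. The H2 genes were not spread evenly. With gaps above 200000 bases taken as breaks, they formed 3 blocks and a pair of lone genes. The first block ran over 369987 bases and held 13 genes, in the order H2-K2, H2-K1, H2-Ke6, H2-Oa, H2-DMa, H2-DMb2, H2-DMb1, H2-Ob, H2-Ab1, H2-Aa, H2-Eb1, H2-Eb2 and H2-Ea. A gap of 918448 bases with 75 other genes followed, which is the class III stretch of complement and cytokine genes. The second block ran over 211470 bases and held H2-D1, H2-Q1, H2-Q2, H2-Q4, H2-Q5, H2-Q6, H2-Q7 and H2-Q10, with no other gene between any neighbours. The next gap was 531131 bases with 32 other genes, from Pou5f1 to Gnl1. The third block ran over 992261 bases and held 17 genes, in the order H2-T24, H2-T23, H2-T22, H2-Bl, H2-T-ps, H2-T10, H2-T3, H2-M10.2, H2-M10.1, H2-M10.3, H2-M10.4, H2-M11, H2-M9, H2-M1, H2-M10.5, H2-M10.6 and H2-M5. H2-M3 followed after 272278 bases and H2-M2 after a further 206365 bases, both with olfactory receptor genes as neighbours. The classical genes therefore stood apart, H2-K1 (chr17:33996012-34000347, minus strand) before the class II genes and H2-D1 (chr17:35263094-35267497, plus strand) at the head of the Q genes.

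Strand followed the groups. All 7 Q genes on chromosome 17 were on the plus strand and all 7 T genes on the minus strand. The M genes were mixed, with 4 plus and 8 minus. Of the 10 class II genes 8 were plus, and the exceptions were the alpha-chain genes H2-Aa and H2-Ea, each converging with the beta-chain gene before it. Over all 40 symbols the strands were even, at 20 and 20.

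**Figure D1:**
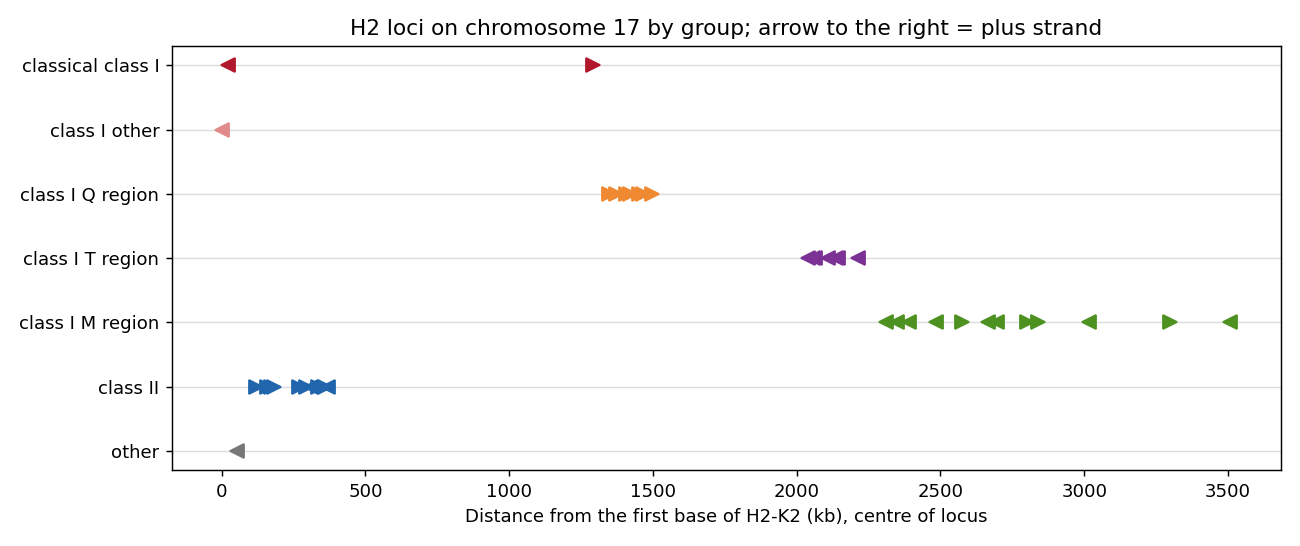
Each arrow is an H2 locus on chromosome 17 placed by the distance of its centre from the first base of H2-K2 (kb, horizontal axis) and by group (vertical axis), pointing right for the plus strand and left for the minus strand. The 10 class II genes sit in the first 369987 bases, the 7 Q genes all point right, the 7 T genes all point left, and the 12 M genes extend to the right end.

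Spacing within the class II stretch was uneven too. H2-Eb2 and H2-Ea were 541 bases apart, the smallest gap between H2 neighbours on the chromosome, and H2-DMb2 and H2-DMb1 were 1637 bases apart. Between H2-DMb1 and H2-Ob, 78675 bases apart, lay Psmb9, Tap1, Psmb8 and Tap2, the immunoproteasome subunits and the peptide transporter that feed the class I pathway. Brd2, a bromodomain gene, lay between H2-Oa and H2-DMa. Of a list of 24 antigen-presentation genes without an H2 name, all had a row, 5 were on chromosome 17 and 4 of those were inside the H2 span. Tapbp, the peptide-loading chaperone tapasin, was the one outside it. B2m, the light chain of class I molecules, was on chromosome 2 and had no alternate locus. A list of 44 framework genes, taken as landmarks of the complex and without an H2 name, was looked up as well. Of these, 43 were on chromosome 17 and 40 inside the span, and Trim27 was on chromosome 13.

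Promoter windows from RefSeq (GRCm38.p6) were available for 32 of the 40 symbols on chromosome 17, and in 35 of 35 windows the start site equalled the 5′ end of an annotated row. The windows below are the 250 bases before the first listed start site of the classical class I genes and of a non-classical M gene. They are shown because those of H2-K1 and H2-D1 carry known class I control elements, with H2-M10.5 for comparison. Capitals mark matches on either strand to GGGATTCCC (the enhancer A site bound by NF-kB factors), TTTCACTT (the core of the interferon-stimulated element) and CCAAT (the binding site of NF-Y). They also mark TGATGA, letters that resemble the X2 box of MHC promoters, and matches to TATAAA. The windows lie at chr17:34000348-34000597 (minus strand) for H2-K1, chr17:35262844-35263093 (plus) for H2-D1 and chr17:36772660-36772909 (plus) for H2-M10.5.
H2-K1: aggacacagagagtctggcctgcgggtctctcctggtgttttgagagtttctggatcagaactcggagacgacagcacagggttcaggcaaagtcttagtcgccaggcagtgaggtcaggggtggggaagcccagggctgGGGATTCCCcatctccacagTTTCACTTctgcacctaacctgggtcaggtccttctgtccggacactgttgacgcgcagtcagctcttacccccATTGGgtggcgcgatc
H2-D1: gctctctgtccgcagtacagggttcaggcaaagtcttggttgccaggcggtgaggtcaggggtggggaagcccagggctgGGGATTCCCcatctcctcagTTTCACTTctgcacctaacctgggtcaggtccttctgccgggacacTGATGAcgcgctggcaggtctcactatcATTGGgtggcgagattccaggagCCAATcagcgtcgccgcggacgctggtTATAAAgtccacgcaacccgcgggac
H2-M10.5: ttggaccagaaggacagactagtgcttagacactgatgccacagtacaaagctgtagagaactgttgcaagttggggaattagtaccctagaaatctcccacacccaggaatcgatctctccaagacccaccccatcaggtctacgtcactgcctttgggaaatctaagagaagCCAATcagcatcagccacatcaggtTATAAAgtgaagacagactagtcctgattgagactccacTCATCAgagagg

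In H2-K1 the enhancer A letters began 110 bases before the start site and the interferon core 90 bases before it, and an inverted CCAAT began 16 bases before it. In H2-D1 the same 3 matches began 170, 150 and 76 bases before the start site. The spacing was the same in both genes, 20 bases from the first element to the second and 74 from the second to the third, so the listed H2-K1 start lay 60 bases nearer to the elements than that of H2-D1. H2-K1 has a second annotated row, whose 5′ end at base 34000333 is inside the first. The H2-M10.5 window held CCAAT and TATAAA and neither of the first 2 motifs.

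Across the 23 class I windows, 1 per symbol, GGGATTCCC was found in 4 (H2-K1, H2-D1, H2-Q6 and H2-Q7), against 0.296% of the 26993 promoters of other genes. TTTCACTT was found in 9 of 23 (those 4 with H2-Q4, H2-Q10, H2-T22, H2-T3 and H2-M3), against 1.41% of other promoters. CCAAT was found in 20 of 23 (34.4% of others), TATAAA in 12 of 23 (12.9%) and TGATGA in 11 of 23 (10.7%). The TGATGA matches of H2-M10.1, H2-M10.3, H2-M10.4 and H2-M10.5 began at -12, -6, -12 and -12 from the start site. These lay downstream of CCAAT, unlike an X2 box, so the count of 11 is of letters and not of X2 boxes. Neither of the 2 inducible elements was matched in the 8 class II windows, nor was TATAAA, while CCAAT was in 7 of 8 and TGATGA in 3 of 8. These are letter matches, the genes of a class share ancestry and are not independent, and the motif list was chosen after the sequences had been seen. The class II windows of H2-Aa (chr17:34287824-34288073, minus) and H2-Eb1 (chr17:34305617-34305866, plus) are given for comparison, since each holds a TGATGA match upstream of CCAAT. That is the order of the X2 and Y boxes that the class II transactivator complex reads. The H2-Aa match is on the opposite strand, printed as TCATCA, and whether either match is an X2 box was not tested.
H2-Aa: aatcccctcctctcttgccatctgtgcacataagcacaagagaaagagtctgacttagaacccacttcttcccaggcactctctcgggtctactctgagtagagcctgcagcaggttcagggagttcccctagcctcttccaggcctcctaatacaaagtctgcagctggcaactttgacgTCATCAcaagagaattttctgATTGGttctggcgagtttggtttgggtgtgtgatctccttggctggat
H2-Eb1: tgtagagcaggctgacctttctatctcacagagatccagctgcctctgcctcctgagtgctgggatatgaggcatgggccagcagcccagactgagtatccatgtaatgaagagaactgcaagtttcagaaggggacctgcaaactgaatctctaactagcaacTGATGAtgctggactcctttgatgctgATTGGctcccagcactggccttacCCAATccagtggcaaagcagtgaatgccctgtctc

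Coding exon numbers overlapped between the classes, and coding lengths did not for the rows chosen here. For each symbol the row with the longest coding part on any contig was used. The 29 class I symbols with a coding row had 5 coding exons in 15 cases, 6 in 7, 7 in 2, 8 in 3, 9 in 1 and 10 in 1, with a median of 5. Their coding part ran from 978 bases (H2-Q10) to 1155 (H2-T3), with a median of 1029. Among the 29, RefSeq lists H2-Bl and H2-T10 as transcribed pseudogenes, and both had a coding row on alternate contigs only. The 9 class II symbols had 4 coding exons (H2-Aa), 5 (H2-Oa, H2-DMa, H2-Eb2) or 6 (H2-DMb2, H2-DMb1, H2-Ob, H2-Ab1, H2-Eb1), with a median of 6, and a shorter coding part of 753 (H2-Oa) to 864 (H2-Eb2) bases, median 786. Class II rows spanned more of the chromosome, with a median of 7004 bases against 4252 for class I. Over all 21024 coding symbols the median was 6 coding exons, and 6.95% had 5.

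The domain exons of class I were nearly constant in size. Coding exon 2, which encodes alpha 1, was 270 bases in 24 of 29 symbols. Coding exon 3, for alpha 2, was 276 bases in 26 of 29, and coding exon 4, for the immunoglobulin-like alpha 3, was 276 bases in 25 of 29. The exceptions were few. H2-Q4 had an exon 2 of 354 bases, and H2-T24 of 297. H2-M1 had 267 bases in exon 2 and 285 in exon 4, and H2-Q7 and H2-Q9 had 285 in exon 4. H2-T22 had 261 and 237 bases in exons 2 and 3. H2-T10, whose only coding row was on JH590470, departed most. It had 261, 148 and 98 bases in exons 2 to 4 and its 276-base exon as coding exon 5. On chromosome 17 its row, which has no coding part, had 1 exon of 248 bases in place of those of 148 and 98. Its number of coding exons and its 98-base exon 4 thus rest on how the annotation of JH590470 splits that exon.

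The ends of the class I coding part varied instead. The first coding exon, for the leader, ran from 52 to 85 bases, median 70. H2-K1 had coding exons of 64, 270, 276, 276, 120, 33, 39 and 32 bases, 1110 in all, and H2-D1 of 73, 270, 276, 276, 117, 33, 39 and 5 bases, 1089 in all. The other H2-K1 row, with 1083 coding bases, ended in a coding exon of 5 bases like that of H2-D1. H2-Q1 shared the 8-exon form, whereas 6 of the 8 coding Q genes and 9 of the 12 M genes stopped after 5 coding exons. Several paralogs had equal coding exon sizes. There were 5 sets of symbols with the same list of coding exon sizes, holding 11 symbols: H2-Q6 with H2-Q8 (64, 270, 276, 276 and 95 bases), H2-Q7 with H2-Q9 (64, 270, 276, 285 and 110), H2-M10.1 with H2-M10.4, H2-M10.3 with H2-M10.5 and H2-M10.6, and H2-DMb1 with H2-DMb2.

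Further rows of a symbol could break the pattern. H2-Q7 had a row with 648 coding bases against 1005, the shortest of any class I coding row, which lacks the 285-base alpha 3 exon. H2-M9 had a further row with 735 coding bases against 1029, and H2-M10.1 one with 867 against 996. H2-T-ps carries the suffix for a pseudogene, but RefSeq lists it as protein coding, and its row had 6 coding exons and 1005 coding bases.

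In class II the membrane-proximal, immunoglobulin-like domain lies in coding exon 3. It was 282 bases in 4 of the 6 beta-chain genes and 285 in H2-DMb1 and H2-DMb2. Exon 4 of the beta chains was 111 bases in the same 4 genes and 117 in the DM pair. Of the alpha chains, H2-Oa had coding exons of 82, 249, 282, 136 and 4 bases, H2-Aa of 85, 249, 282 and 155, and H2-DMa of 88, 285, 279, 129 and 5. The peptide-exchange gene H2-DMa also had the longest class II row on the chromosome, 16270 bases, of which 12247 were 1 intron.

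**Figure D2:**
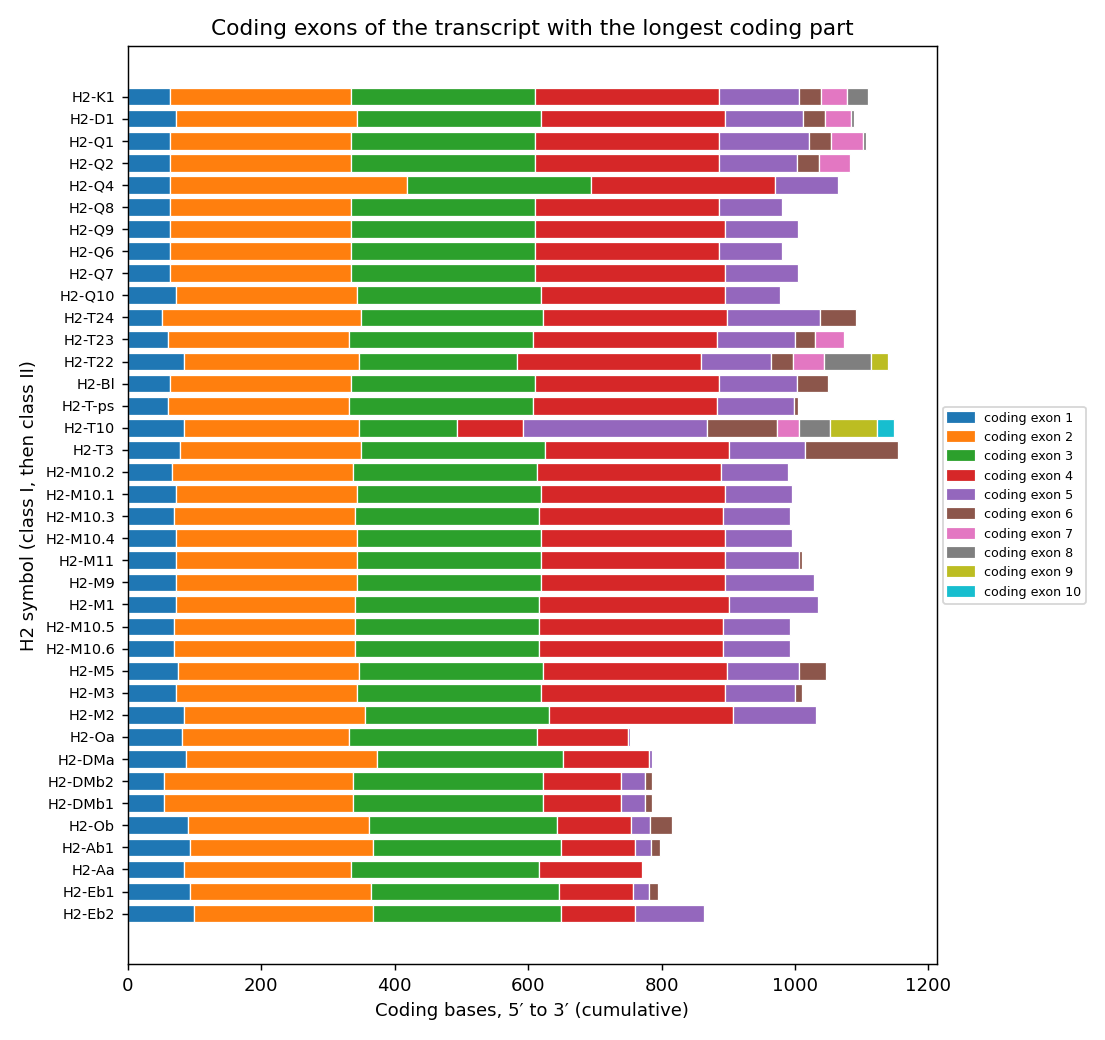
Each bar is the coding part of an H2 symbol laid 5′ to 3′ (horizontal axis, cumulative coding bases), with 1 colour per coding exon, class I above and class II below. Exons 2 to 4 line up across class I at 270, 276 and 276 bases except in the few symbols named in the text, and the class II bars end by 864 bases.

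Reading frame was shared by both classes. The first coding exon left a remainder of 1 base after division by 3 in 29 of 29 class I and 9 of 9 class II symbols, against 39.4% of 17746 other genes with more than 1 coding exon. Among symbols with at least 5 coding exons, this remainder together with coding exons 2 to 4 all being multiples of 3 held in 28 of 29 class I and 7 of 8 class II symbols, against 4.17% of 13384 other genes. The exceptions were H2-T10 and H2-Oa, and that of H2-T10 arose at the exon that is split in its JH590470 row. With such frames each domain exon begins and ends at the same codon position, as is common for immunoglobulin-like domains. The genes of a class share ancestry, so these are not counts of independent genes.

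Alternate loci were close to universal. Of the 40 H2 symbols on chromosome 17, 39 (97.5%) had a locus on at least 1 alternate contig, and H2-T23 was the one without. This share was not particular to the H2 genes, since 158 of the 162 other symbols in the span (97.5%) also had one. Over all of chromosome 17 it was 329 of 1261 symbols (26.1%), and over the assembled chromosomes 1355 of 26125 (5.19%). The number of contigs holding a symbol was 4 for 32 H2 symbols, 3 for 3, 2 for 4 and 1 for 3.

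The contigs covered different parts of the complex. JH584266 and JH584328 covered the full stretch and held 35 H2 symbols each. GL456022 ran from the K end through the Q genes and held 23, JH590470 ran from H2-T-ps to H2-M5 and held 13, GL456002 held H2-M2 alone and JH584308 H2-M3 alone. A contig was taken to cover a gene when it held the nearest shared genes on both sides. A symbol without a row on a covering contig lacks an annotation there, and the contig sequence was not used here to see whether the gene is present.

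Class II presence did not vary. Each of the 10 class II symbols and H2-Ke6 had a locus on chromosome 17, GL456022, JH584266 and JH584328, in all cases on the same strand. The 7 symbols missing from at least 1 covering contig were all class I, 7 of 31. H2-K1, H2-Q5, H2-T23, H2-T-ps and H2-T10 had no row on JH584266 and JH584328, and H2-Q8 and H2-Q9 had none on those contigs or on chromosome 17. In the stretch that JH584266 covers, 5 of 40 H2 symbols of chromosome 17 (12.5%) and 10 of 214 other symbols (4.67%) had no row. On JH584328 it was the same 12.5% of H2 symbols and 8 of 203 others (3.94%). On JH590470 the direction was the opposite, with 0 of 13 H2 symbols and 4 of 28 others, and on GL456022 every one of the 135 symbols had a row. The others without a row on JH590470, Gm10499, 2410017I17Rik, Gm8909 and Gm6623, lie between H2-T10 and H2-T3 on chromosome 17. For JH584266 and JH584328 the others included A930015D03Rik, BC023719, Gm7030, Gm10499, 2410017I17Rik and Gm8909 in the T stretch, and AA388235 beside H2-K1. Many missing rows of both kinds there thus lay in the same intervals, so the shares do not compare independent groups of genes.

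**Figure D3:**
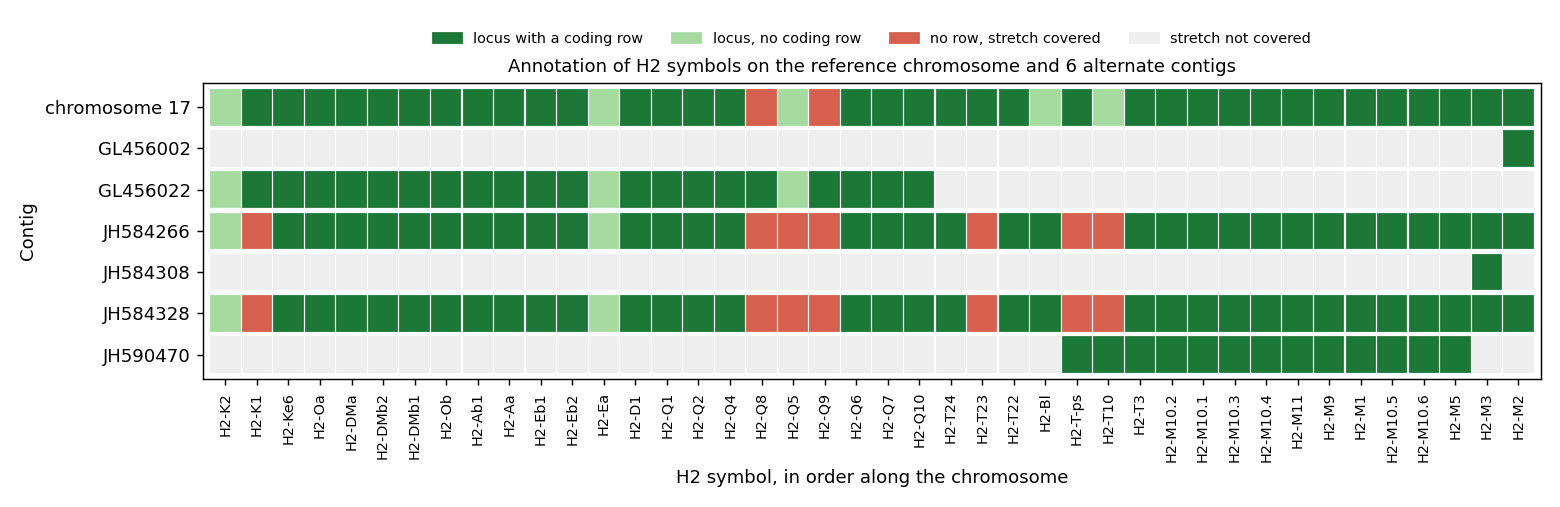
Each cell is an H2 symbol (horizontal axis, in chromosome order) on a contig (vertical axis): dark green for a locus with a coding row, light green for a locus with none, red for no row although neighbours on both sides are present, and grey for a stretch that is not covered. Red cells occur at 7 symbols, all class I, and JH584266 and JH584328 show the same pattern.

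A locus on 1 haplotype only, although other contigs cover the place, was annotated for 3 symbols. H2-Q8 and H2-Q9 were on GL456022 alone, and H2-T23 was on chromosome 17 alone (chr17:36029977-36032701, minus strand). H2-T-ps and H2-T10 were on chromosome 17 and JH590470, and H2-Q5 and H2-K1 on chromosome 17 and GL456022. Synonyms from RefSeq did not move this count of 3. For H2-K1 the nearest genes on each side that chromosome 17, JH584266 and JH584328 share were H2-K2 and Ring1. The distance between them was 42000 bases on chromosome 17 and 43895 on JH584266 and JH584328. The stretch in which H2-K1 and its neighbour AA388235 have no row on those contigs was therefore not shorter. Similarly, H2-T24 and H2-T22 were 16567 bases apart on chromosome 17, with H2-T23 between them, and 20311 apart on those contigs. The T genes further on behaved otherwise: from H2-Bl to Gm6623, the interval that holds H2-T-ps and H2-T10 on chromosome 17, measured 94527 bases there and 66004 on JH584266. Beyond Gm6623, however, the H2-T3 locus was 29150 bases longer on JH584266, so the stretch through H2-T3 was not shorter to that extent.

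In the Q region both the annotated H2 symbols and the length of the interval differed. From H2-Q4 to H2-Q6 was 40175 bases on chromosome 17, with H2-Q5 between, and 37839 on the JH contigs, with no H2 row between. On GL456022 it was 111801 bases and held H2-Q8, H2-Q5 and H2-Q9. The row of H2-Q8 spanned 32769 bases there, because its intron 3 was 31273 bases, and H2-Q5 spanned 30749 bases against 1532 on chromosome 17. All 30749 bases of the H2-Q5 locus lay within the H2-Q8 locus on the same strand, and they shared 637 exon bases: 91 in the first exons, 270 in the second and 276 in the third. H2-Q5 had 4 exons on GL456022 (91, 270, 289 and 539 bases) and 3 on chromosome 17 (91, 270 and 820 bases). These shared bases carry both symbols on that contig, so a signal over them could not be assigned to either gene. H2-Q9 had a compact locus of 4642 bases, close to the 4619 of H2-Q7.

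Gene order was the same on every contig when only H2 genes were compared. Each pair of shared genes was called discordant when the first bases of the genes came in a different order on the contigs. Between chromosome 17 and JH584266, 0 of 595 pairs of H2 genes were discordant, and the counts were 0 of 595 for JH584328, 0 of 210 for GL456022 and 0 of 78 for JH590470. With all shared genes included, GL456022 had 0 of 9045 discordant pairs and JH590470 had 0 of 666. JH584266 had 2 of 28441 and JH584328 had 2 of 26335, and these contigs did not differ from each other in 25878 pairs. No shared gene changed strand.

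The 2 discordant pairs were the same on both contigs and touched an H2 gene. They were Gm11127 with H2-T22 and Gm11127 with Gm6034. Gm11127 carries H2-K1 as a synonym in RefSeq and has a class I exon pattern, with coding exons of 76, 270, 267, 276, 114 and 122 bases on chromosome 17. There its locus was 2556 bases and lay after H2-T22, inside Gm6034. On JH584266 it was 31339 bases and on JH584328 31343 bases, running from before H2-T22 to within Gm6034, so that the whole of H2-T22 lay inside it and 12 exon bases were shared. Its last coding exons differed as well, with 5 coding exons and 1002 coding bases against 6 and 1125. The order change was the same by locus midpoint and involves a row that is longer on these contigs, while H2-T24, H2-T22, Gm6034 and H2-Bl kept their order.

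Spacing changed more than order. Against chromosome 17, 18 of the 20 gaps between H2 neighbours on GL456022 differed by at most 1000 bases, with a median difference of 3 bases in size. The exceptions were H2-Q5 to H2-Q6, where the gap went from 29219 to 72079 bases, and H2-Q7 to H2-Q10, where it went from 26315 to 24321. On JH584266, 16 of 34 gaps were within 1000 bases and 6 differed by over 10000. The gap from H2-DMb1 to H2-Ob went from 78675 to 65963 bases, and H2-Ea to H2-D1 was longer by 11594. H2-Q10 to H2-T24 was longer by 22295 bases and H2-M10.1 to H2-M10.3 by 52002. H2-T22 to H2-Bl went from 37367 to 21272 bases and H2-Bl to H2-T3 from 101321 to 72858. On JH584328, 17 of 34 gaps were within 1000 bases and 4 differed by over 10000. The JH584266 changes at H2-Q10 to H2-T24 and at H2-M10.1 to H2-M10.3 were the 2 of 34 gaps in which these contigs differed from each other by over 10000 bases, and the other 32 were within 1000. On JH590470, 6 of 12 gaps were within 1000 bases and 3 differed by over 10000. Of these 3, H2-T3 to H2-M10.2 was longer by 51677 bases. H2-M10.4 to H2-M11 went from 84745 to 70800 bases and H2-M1 to H2-M10.5 from 100712 to 86661. Gaps include any unresolved bases of an assembly, which the annotation does not show.

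**Figure D4:**
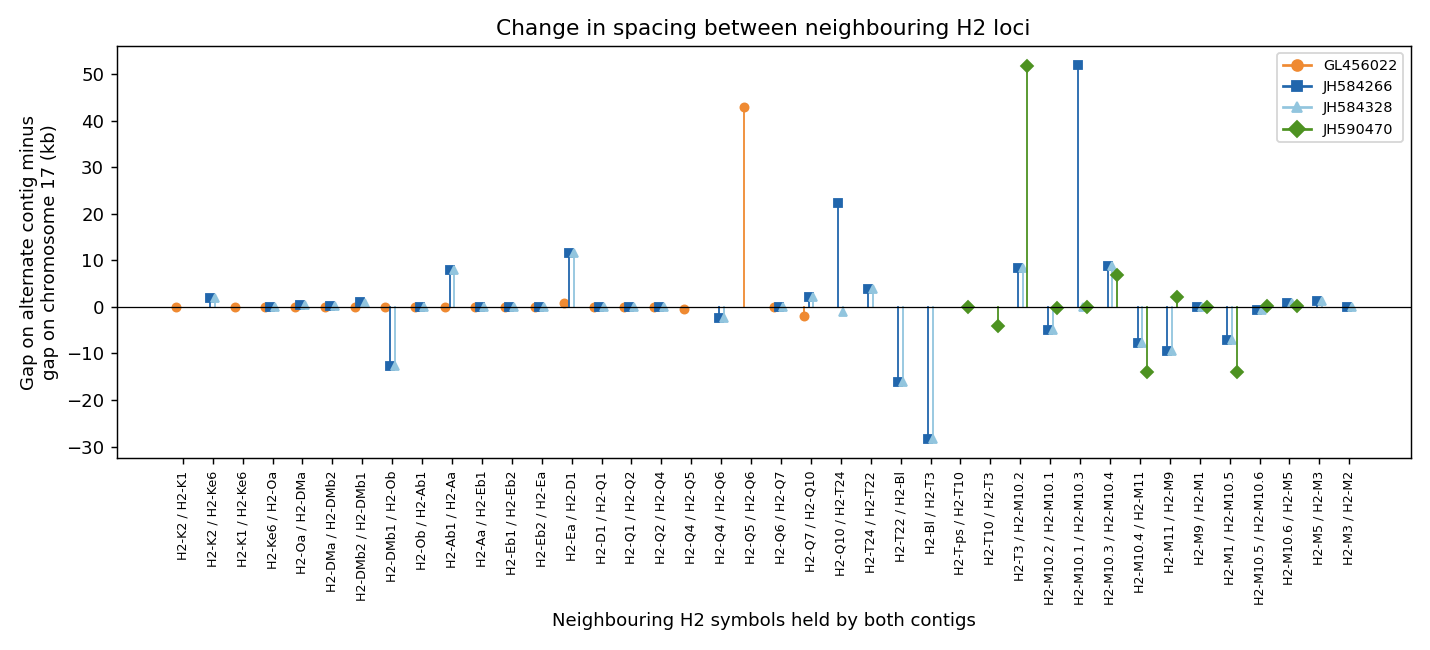
Each point is the gap between neighbouring H2 symbols on an alternate contig minus the gap between the same symbols on chromosome 17 (kb, vertical axis), with the pairs in chromosome order and 1 marker per contig. The GL456022 points lie within 1000 bases of 0 in 18 of 20 pairs and highest at H2-Q5 and H2-Q6, while JH584266 and JH584328 move together except at H2-Q10 and H2-T24 and at H2-M10.1 and H2-M10.3.

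Exon sizes were then compared between contigs over all rows of a symbol. Of the 39 symbols on at least 2 contigs, 36 had a coding row on at least 1 of them. The coding part had 1 set of exon sizes in 31 of these 36 and more than 1, or was annotated on some contigs only, in 5. With untranslated exon bases included, 17 of the 36 had more than 1 set of exon sizes. Between chromosome 17 and GL456022, all 18 symbols with a coding row on both had the same coding exon sizes. Of all 21 shared symbols there, 19 had the same exon sizes and 15 the same row lengths. Between chromosome 17 and JH584266, 29 of 32 symbols with a coding row on both had the same coding exon sizes, and 9 of the 35 shared symbols had the same row lengths. JH584266 and JH584328 had the same exon sizes in 35 of 35 symbols and the same row lengths in 31.

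The 5 symbols whose coding part differed were H2-Ab1, H2-T22, H2-Bl, H2-T10 and H2-M11. In H2-Ab1, the I-A beta chain, coding exon 2 for the peptide-binding domain was 273 bases on chromosome 17 and GL456022 and 267 on JH584266 and JH584328, and the coding part was 798 against 792 bases. Its second intron was 2302 bases in the former and 1436 in the latter, and the locus 6192 against 5295 bases. H2-M11 had a coding part of 1011 bases on chromosome 17 and 1008 on JH584266 and JH584328, and H2-T22 had 1140 against 1134 bases, from a first coding exon of 85 against 79. These 3 differences are whole codons. H2-Bl had no coding row on chromosome 17 and a coding row of 6 exons and 1050 bases on both JH contigs. H2-T10 had no coding row on chromosome 17, where it had 10 exons, and a coding part of 1149 bases on JH590470, where it had 11. The further exon came from the split of the 248-base exon described above.

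Locus length was within 5% across contigs for most symbols, in 33 of 39 by longest against shortest, and this ratio was above 1.5 in 3. H2-Q5 is given above. H2-T3, which encodes the thymus leukaemia antigen, was 4581 bases on chromosome 17, 33731 on JH584266 and JH584328, and 24814 on JH590470. The added length was in 1 intron each time, but not the same one. On JH584266 the second intron was 29281 bases against 148 on chromosome 17, and on JH590470 the row had a further last exon after an intron of 20227 bases. The coding part was 1155 bases on all 4 contigs. H2-T24 went the other way, with 14866 bases on chromosome 17 and 6974 on the JH contigs, and its intron 5 was 7767 bases on chromosome 17 and 625 on JH584266.

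**Figure D5:**
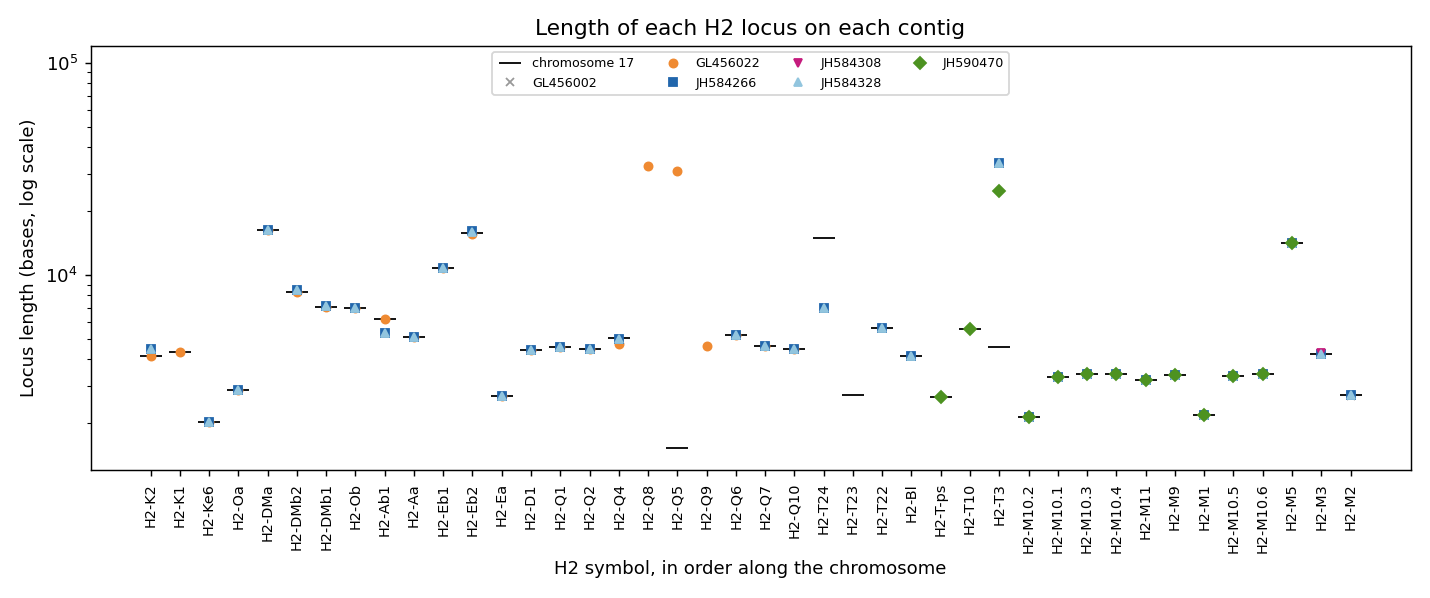
Each marker is the length of an H2 locus on a contig (vertical axis, bases, log scale), with symbols in chromosome order and chromosome 17 as a black dash. Markers overlie each other for most symbols, and the wide gaps are at H2-Q5 (1532 and 30749 bases), H2-T24 (14866 and 6974) and H2-T3 (4581, 33731 and 24814).

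Smaller changes lay outside the coding part. H2-Eb2 ended in 1 exon of 2603 bases on chromosome 17 and GL456022 and in exons of 605 and 2007 bases on JH584266 and JH584328. H2-K2, which has no coding row, was 4133 bases on chromosome 17 and GL456022 and 4485 on the other contigs that hold it.

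Some H2 loci shared bases with genes of other names. On chromosome 17, 6 H2 loci overlapped another symbol, all 6 on the opposite strand and 4 with shared exon bases. H2-Oa lay whole within BC051537, with 200 shared exon bases on all 4 contigs. H2-T22 shared 742 exon bases with A930015D03Rik, whose locus of 43671 bases also contained H2-T23 and H2-T24 without sharing exon bases. H2-T10 shared 897 and H2-T-ps 30 exon bases with BC023719. On JH584266 and JH584328 A930015D03Rik had no row, so no such overlap of a T gene could be annotated, and H2-T22 there overlapped Gm11127 alone.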

How the data were processed

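Pol I CUT&Tag libraries of C64 cells (2 control, 2 auxin) were described by their labels only. The 1 table used is a region annotation in BED12 layout without a header, deposited by the authors. It holds 50727 rows of positions, exon numbers and exon sizes in bases, and the deposited score was 0 in all 50727 rows. No column gave a value per library. The build mm10 and the tools FastQC, Bowtie2, deepTools and bedtools are named per the submitters' processing notes. What made the annotation, and each tool version, is not given in the sources used here.

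Python 3.11.15 with pandas 2.3.3 and numpy 2.4.6 read the rows, and matplotlib 3.10.9 drew the figures. Positions are counted from 1. Rows of a symbol, contig and strand sharing at least 1 base were merged. The coding part lies between the thick start and thick end, and the row with the longest coding part stood for a symbol. Order was compared by first base, and tested on simulated data with known inversions. All H2 symbols entered the counts of loci, contigs and order, those with a coding row the exon counts, and those with a RefSeq window the promoter counts. The genes named are the ones that differ between contigs, end a range or break the commonest structure. The members and gene lists were chosen with earlier results of these data known. Depth is unknown, no statistical test was possible, and duplicated paralogs such as the Q genes rest on the annotation's own placement.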

Additional observations from a re-analysis of the deposited data

How the results depend on the processing

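Counts that did not move beyond 1.5 times under any alternative run were the number of H2 symbols with an alternate locus and the number on 1 haplotype only. The median coding exon number of each class also stayed within that limit, but the limit is wider than the difference between the class medians of 5 and 6. With all coding rows the class II median was 5.5, and with all exons counted the median was 6 in both classes. The count of H2 loci went from 148 to 40 when only assembled chromosomes were used, since the alternate contigs are then left out, and was 216 with every row counted and 169 with identical intervals counted once. The 4 discordant pairs, 2 on each of 2 contigs, became 0 with H2 genes only, since Gm11127 is then left out, and remained 4 by locus midpoint. No paired analysis was possible because no library has a value here, and leaving out a replicate could not be done for the same reason. A missing row is a missing annotation, and nothing here measures expression or Pol I signal at any H2 gene.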

Other observations

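Several genes with no H2 symbol had class I-like exon sizes next to the T genes. Gm8909, with the RefSeq synonym H2-Tw5l, had 8 coding exons of 64, 282, 276, 276, 117, 33, 46 and 13 bases (1107 in all) on chromosome 17, between H2-T10 and H2-T3, and had no row on an alternate contig. Gm7030, with the synonym H2-t9, had 4 coding exons of 76, 270, 267 and 245 bases on chromosome 17 and on JH590470. These genes were chosen for description after their values were seen. A count of class I genes by symbol alone leaves them out, together with Gm11127. Of the 8 H2 genes of RefSeq without a row, H2-T18 is listed there as protein coding, H2-D4 as a transcribed pseudogene and the remaining 6 as pseudogenes.

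The framework genes Pou5f1, the pluripotency factor Oct4, and Tcf19, which lie between H2-Q10 and H2-T24, had rows on GL456022 and JH584328 and none on JH584266.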
